A study of Pleurotus tuoliensis with 9 samples.

Results

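The unigenes described here are 34 chaperones and co-chaperones of *Pleurotus tuoliensis*, the proteins that help others to fold, out of the 13953 unigenes counted by RNA-seq in its mycelia. They were chosen from the description of each unigene's best protein match. The words were such as heat shock protein, HSP, chaperone, DnaJ, T-complex protein, cyclophilin, peptidyl-prolyl and protein disulfide. The words do not use expression, but the choice was made with earlier results of these data known. Of 40 unigenes with such words, 6 were left out, among them the mitochondrial chaperonin HSP60 and its partner HSP10 and 3 unigenes of the HSP70 family. The mycelia were of 1 strain, Zhongnong No.1, grown in the dark on potato dextrose agar for 9 days at 25 °C, all plates being started from the same initial plate. From the 10th day the plates of the control group (CK) stayed at 25 °C, those of the moderate heat stress treatment (MHT) were kept at 32 °C and those of the severe heat stress treatment (SHT) at 36 °C. RNA was taken on Day 13 from 3 separate plates per group, so each group has 3 biological replicates of the same strain and age that differ by label in temperature alone.

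Heat unfolds proteins, and cells answer with chaperones that hold, refold or disassemble the unfolded chains. HSP70 binds short exposed stretches of a chain in cycles driven by ATP, HSP40 (DnaJ) proteins bring clients to HSP70 and start that cycle, and HSP90 finishes the folding of kinases and other signalling proteins with the help of co-chaperones such as Cdc37. The TCP-1 chaperonin is a ring of related subunits in the cytosol that encloses actin, tubulin and other clients. Peptidyl-prolyl isomerases turn the bonds before proline, and protein disulfide isomerases make and rearrange the disulfide bonds of proteins in the endoplasmic reticulum (ER).

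Sorted by description, the 34 unigenes are 8 of the HSP70 family, 4 HSP90s with the co-chaperone Cdc37, 4 HSP40 or DnaJ proteins, 5 of the TCP-1 chaperonin, 3 peptidyl-prolyl isomerases, 3 protein disulfide isomerases and 6 others. Among the others, 4 are no general folding helpers, namely 3 vacuolar transporter chaperones, which in yeast belong to a complex that makes polyphosphate, and Shr3, which in yeast lets amino acid permeases leave the ER. The label of cytosolic and ER proteins could be checked only in part, since no description but those of 2 lumenal HSP70s and the 3 vacuolar unigenes names a compartment. No description held the words prefoldin, calnexin or calreticulin, and for 10733 unigenes the match was a hypothetical or uncharacterized protein, among which chaperones may remain. The best matches were proteins of *Pleurotus eryngii* for 13 members and of *Pleurotus ostreatus* for 10, while 5 matched records of the willow *Salix suchowensis*.

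The libraries held 3925786 to 6180053 counts and were scaled by TMM, with factors of 0.870 to 1.11. MHT replicate 3 and SHT replicate 2 lay apart from the other libraries of their groups, at Euclidean distances of log2 CPM (counts scaled for library size) of 71.3 and 75.6 and of 65.9 and 67.6, against 43.4 and 43.0 between the other pairs of MHT and SHT. The CK libraries lay 51.5 to 62.6 apart, so SHT replicate 2 was not far beyond the spread of CK. As a check of the tissue, a hydrophobin, a surface protein of aerial hyphae, was counted 439 to 3017 times per library. The other hydrophobin unigenes held far fewer counts, 13 to 121, 8 to 29, 2 to 12 and 0 to 10, and the last was not tested. Of the 4 hydrophobins tested, 3 fell in SHT&CK, against 10.9% of all unigenes. The hydrophobin of 439 to 3017 counts, Gene_22549, was among them, at means of 589 CPM under CK, 323 under MHT and 86.5 under SHT. Its level thus differed by group, so it does not show that the tissue was alike in the 3 groups. All 34 members had counts in each library and were tested with the other unigenes, 13018 in all. Their counts were at least 25 in every library except for Gene_3169, a vacuolar transporter chaperone with 2 to 8 counts. In RNA from whole mycelium, a change in each cell and a change in how many cells express a gene cannot be told apart.

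As a share of all counts in a library, the 34 members took 0.577%, 0.652% and 0.572% in CK, 0.733%, 0.699% and 0.926% in MHT and 1.07%, 0.850% and 1.19% in SHT. Every MHT and SHT library was thus above every CK library in these unscaled shares, while MHT replicate 3 stood above SHT replicate 2. After TMM scaling the gap was smaller, with summed levels of 6638, 6923 and 6231 CPM under CK, 7477, 6949 and 9051 under MHT and 9727, 7670 and 11058 under SHT, so that MHT replicate 2 was barely above CK replicate 2. The scaled means of MHT and SHT were 1.19 and 1.44 times that of CK. The mean level was lowest in CK, higher in MHT and highest in SHT for 21 of the 34 members (61.8%), an order found in 27.3% of all unigenes tested. The reverse order, which 27.7% of all unigenes showed, was found for 1 member, the disulfide isomerase precursor Gene_8671. In SHT&CK 29 of 34 log2 fold changes were positive with a median of 0.57, beside 50.5% and 0.01 over all unigenes. In MHT&CK 29 of 34 were positive with a median of 0.30, and in SHT&MHT 24 of 34 with a median of 0.21, beside medians of 0.00 over all unigenes in both.

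Differentially expressed genes (DEGs) were few among the 34 members. Unigenes counted as DEGs where edgeR's quasi-likelihood test gave an adjusted p below 0.05 and the log2 fold change was beyond 1 or -1, and "rose" and "fell" are used of DEGs alone. In SHT&CK 4 members rose, 11.8% of the 34 against 10.8% of all unigenes tested, and 1 fell, 2.94% against 10.9%. In MHT&CK 1 member rose, 2.94% against 3.85%, and none fell, against 4.32%. In SHT&MHT 1 member rose, 2.94% against 2.79%, and none fell, against 2.87%. By this count the share of members that rose was near that of all unigenes in each comparison.

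Without the limit on the fold change the picture was different. In SHT&CK 17 of 34 members were higher at an adjusted p below 0.05, against 20.4% of all unigenes, and 1 was lower, against 19.7%. In MHT&CK 7 (20.6%) were higher, against 7.50%, and 1 was lower, against 7.41%. In SHT&MHT 1 was higher, against 4.82%, and none was lower, against 4.93%. By DESeq2 also, 0 were lower in SHT&MHT at any fold, against 7.42% of all unigenes, and 0 fell in MHT&CK or SHT&MHT. In MHT&CK 1 was lower at any fold by DESeq2, against 9.19%. At an unadjusted p below 0.05 in edgeR, 11, 19 and 6 members were higher in MHT&CK, in SHT&CK and in SHT&MHT, against 15.9%, 25% and 14.8% of all unigenes, and 1 was lower in each, against 15.1%, 24.8% and 14.2%. These counts varied with the libraries used. The 17 of SHT&CK became 11 without CK replicate 1, 9 without CK replicate 3 and 8 without SHT replicate 3, where the share of all unigenes also went down, to 15.3%, 13.6% and 14.0%. The 7 of MHT&CK became 2 without CK replicate 1 and 2 without CK replicate 3, with 3.98% and 3.19% of all unigenes. Without SHT replicate 2 the 4 that rose in SHT&CK became 7, with 11.1% of all unigenes. Without both MHT replicate 3 and SHT replicate 2, a setting chosen after the values were seen, 22 members were higher in SHT&CK and 7 in MHT&CK, against 23.9% and 9.48% of all unigenes, and 8 in SHT&MHT, against 15.5%.

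By libraries alone, every MHT library lay above every CK library in 16 members, against 18.4% of all unigenes, and below in 2, against 19.1%. Every SHT library lay above every CK library in 17, against 27.6%, and below in 1, against 28.3%. Between the treatments SHT was wholly above MHT in 5, against 15.4%, and wholly below in 2, against 12.6%. MHT&CK and SHT&CK share the CK libraries, so their values for a member are not independent of each other.

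**Figure D1:**
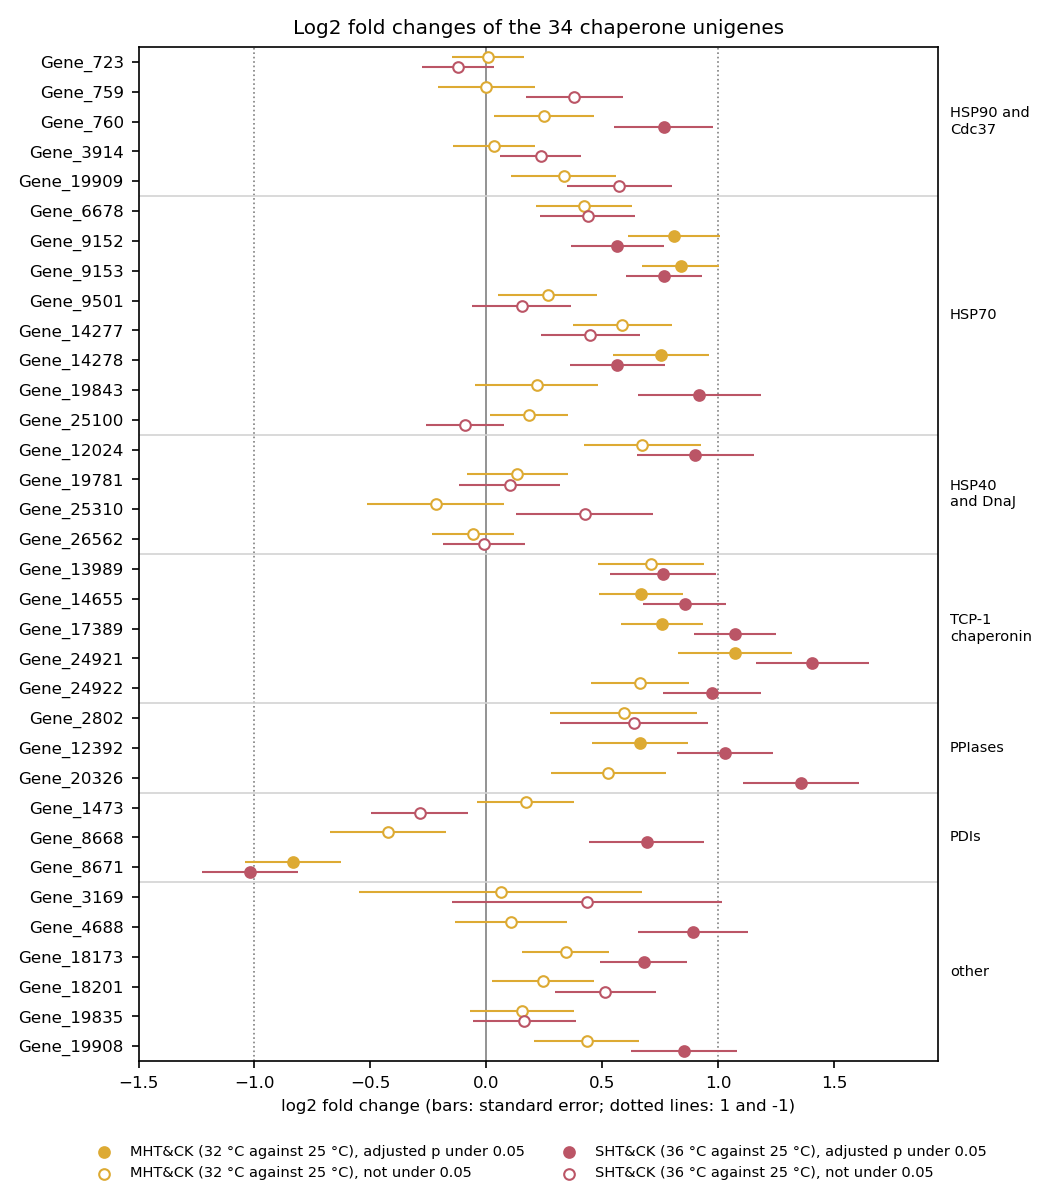
Log2 fold changes of the 34 chaperone unigenes in MHT&CK (yellow) and SHT&CK (red), with the standard error (SE) as bars and families set apart by lines. Filled points have an adjusted p below 0.05, and dotted lines mark log2 fold changes of 1 and -1. All 5 TCP-1 unigenes lie to the right of 0 in both comparisons, with filled points for all 5 in SHT&CK, whereas Gene_8671 lies to the left in both.

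All 5 unigenes of the TCP-1 chaperonin were higher at an adjusted p below 0.05 in SHT&CK, and 3 of them in MHT&CK, with median log2 fold changes of 0.97 and 0.71. In each of the 5, every MHT library and every SHT library lay above every CK library, a double separation that 13.1% of all unigenes showed. Gene_24921, described as T-complex protein 1 without a subunit name, was at 7.32, 7.20 and 6.11 CPM in the CK libraries, 13.7, 11.5 and 18.3 in MHT and 17.5, 16.3 and 20.9 in SHT. It rose in both treatments, and MHT replicate 3 reached the levels of SHT. Its log2 fold changes were 1.07 (SE 0.246, adjusted p = 0.0127 by quasi-likelihood in edgeR) in MHT&CK and 1.41 (SE 0.244, adjusted p = 0.00106) in SHT&CK. The first of these calls was lost without CK replicate 3 (0.99) or MHT replicate 3 (0.88).

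The epsilon subunit, Gene_17389, held 36.3, 44.9 and 48.9 CPM under CK, 66.3, 71.1 and 83.2 under MHT and 84.5, 93.4 and 96.6 under SHT, so none of the 3 groups overlapped another. It rose in SHT&CK, by a log2 fold change of 1.07 (SE 0.177, adjusted p = 7.91e-04 by quasi-likelihood in edgeR), which was 0.96 and no longer a DEG without CK replicate 1. In MHT&CK its log2 fold change was 0.76 with an adjusted p of 0.0138, which became 0.0610 without CK replicate 1. The delta subunit, Gene_24922, held 46.9, 57.4 and 55.0 CPM under CK, 65.0, 86.6 and 101 under MHT and 91.3, 92.1 and 129.6 under SHT. It stayed just under the limit in SHT&CK, at 0.97 (SE 0.212, adjusted p = 0.00377), and passed it without CK replicate 2 (1.03), SHT replicate 1 (1.05) or SHT replicate 2 (1.04). The zeta subunit, Gene_14655, had 0.67 in MHT&CK (adjusted p = 0.0269, and 0.0566 to 0.0943 without any single CK library, MHT replicate 1 or MHT replicate 2) and 0.85 in SHT&CK (adjusted p = 0.00314), from 22.0 ± 2.41 CPM under CK to 35.0 ± 1.56 under MHT and 39.9 ± 5.25 under SHT (mean ± SD, n = 3). Gene_13989, a T-complex protein of unnamed subunit, was at 41.6 ± 3.51, 68.3 ± 20.6 and 70.6 ± 13.6 CPM, and its adjusted p of 0.0195 in SHT&CK was 0.0538 to 0.0722 without CK replicate 1, CK replicate 3, SHT replicate 2 or SHT replicate 3.

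Between the treatments no TCP-1 unigene passed, and the log2 fold changes in SHT&MHT were 0.05 to 0.33. Their 95% intervals reached down to -0.44 for Gene_13989 and up to 0.82 for Gene_24921, so these libraries set only wide limits on a further change between 32 °C and 36 °C. Gene_24921 and Gene_24922 have adjacent ID numbers, and the count of the first was 0.111 to 0.211 of that of the second over the 9 libraries. In this family SHT replicate 2 was at 0.834 to 1.30 times the mean of the other SHT libraries, and MHT replicate 3 at 1.08 to 1.63 times that of the other MHT libraries.

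**Figure D2:**
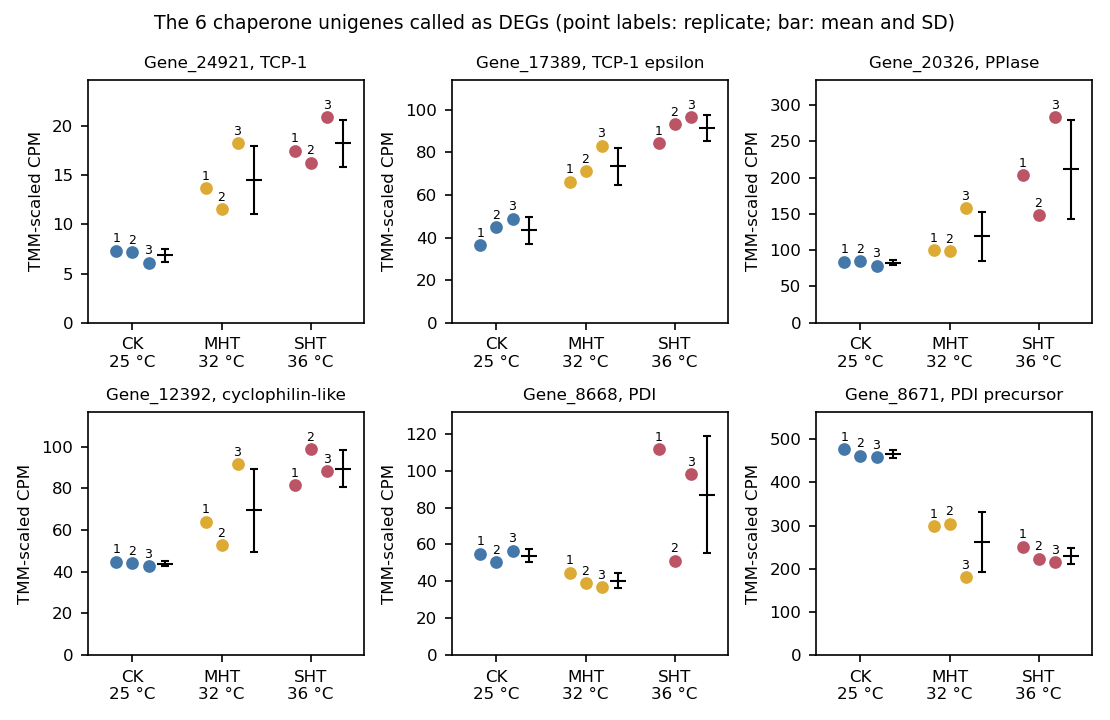
TMM-scaled CPM of the 6 unigenes among the 34 members that were DEGs in at least 1 comparison, by group. Points are the libraries with their replicate numbers, and black bars are the mean and SD of 3. The CK points of Gene_8671 lie at 459 to 477 CPM, above all MHT and SHT points, while the SHT points of Gene_8668 spread from 51.1 to 112 CPM.

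Of the peptidyl-prolyl isomerases, 2 of 3 rose in SHT&CK. Gene_20326, described by that name only, held 84.1, 84.7 and 78.8 CPM under CK, 99.99, 98.7 and 158 under MHT and 203, 148 and 283 under SHT. Both treatments lay above CK in every library, and the lowest SHT library was below the highest MHT library. Its log2 fold change in SHT&CK was 1.36 (SE 0.251, adjusted p = 0.00155 by quasi-likelihood in edgeR), and it remained a DEG whichever library was left out (1.08 to 1.55). In SHT&MHT the log2 fold change was 0.83 with an adjusted p of 0.0518, and it passed as 1.09 without MHT replicate 3 and as 1.03 without SHT replicate 2. The cyclophilin-like Gene_12392, of the isomerases that the drug cyclosporin binds, held 44.8, 44.1 and 42.6 CPM under CK, 64.0, 52.8 and 91.6 under MHT and 81.4, 98.7 and 88.1 under SHT. It rose in SHT&CK with 1.03 (SE 0.207, adjusted p = 0.00243), which was 0.94 without SHT replicate 2 and then under the limit. Its 0.66 in MHT&CK had an adjusted p of 0.0482, and this stayed below 0.05 only without MHT replicate 2 or SHT replicate 2.

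The cyclophilin of the Cyp2 type, Gene_2802, behaved otherwise. It held 475, 543 and 562 CPM under CK, 537, 654 and 1192 under MHT and 576, 1174 and 708 under SHT. A library in each heated group, MHT replicate 3 and SHT replicate 2, held about the same high level, and the rest lay within or not far above the range of CK. Neither comparison with CK passed, with log2 fold changes of 0.59 (95% interval -0.10 to 1.28) in MHT&CK and 0.64 (95% interval -0.05 to 1.33) in SHT&CK. In MHT replicate 3 all 3 isomerases were high, at 1.57 to 2.003 times the mean of the other MHT libraries, while SHT replicate 2 was at 0.610 times the mean of the other SHT libraries for Gene_20326 and at 1.83 times for Gene_2802.

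None of the 8 HSP70 unigenes among the members was a DEG, unlike the HSP70s that the choice left out. All 8 log2 fold changes were positive in MHT&CK, from 0.18 to 0.84 with a median of 0.50. In 6 of the 8 every MHT library lay above every CK library, a separation that 18.4% of all unigenes showed in that direction, whereas every SHT library lay above CK in 2 of the 8, against 27.6%. This difference rested largely on 1 library. SHT replicate 2 was the only SHT library not above all CK libraries in Gene_6678, Gene_9152, Gene_9501, Gene_14277 and Gene_14278. The lumenal unigenes had the smallest p-values of the family in MHT&CK. HSP70s of the ER lumen, such as BiP in yeast and animals, bind proteins as they enter the ER. The descriptions of the lumenal unigenes do not name BiP, so which lumenal HSP70 they are is not known here. Gene_9153 held 59.2, 69.7 and 65.7 CPM under CK, 111, 105 and 133 under MHT and 105, 107 and 119.6 under SHT. The heated groups overlapped each other and neither overlapped CK, and the log2 fold changes were 0.84 (SE 0.165, adjusted p = 0.00588 by quasi-likelihood in edgeR) in MHT&CK and 0.77 (SE 0.165, adjusted p = 0.00351) in SHT&CK. Both adjusted p-values stayed below 0.05 with each library left out, at most 0.0317 and 0.0192. Its neighbour Gene_9152, with the same description, held 98.7, 129 and 118 CPM under CK, 206, 193 and 209 under MHT and 188, 125 and 200.3 under SHT. Its log2 fold change of 0.81 in MHT&CK had an adjusted p of 0.0180, and 0.0649 and 0.0652 without CK replicates 1 and 3. In SHT&CK that of 0.57 had 0.0381, which was 0.0553 to 0.156 without CK replicate 1 or 3, MHT replicate 2, SHT replicate 1 or SHT replicate 3.

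Among the other HSP70s, described by the family name alone in 4 cases, the order of the group means differed by unigene. Gene_19843, with the highest counts of the family, held 879, 808 and 746 CPM under CK, 824, 779 and 1224 under MHT and 1691, 1011 and 1899 under SHT. Every SHT library was above every CK library, while MHT replicates 1 and 2 lay within the range of CK. Its log2 fold change was 0.22 (95% interval -0.36 to 0.79) in MHT&CK and 0.92 (SE 0.266, adjusted p = 0.0166) in SHT&CK, and without SHT replicate 2 it passed with 1.14. Without CK replicate 3, SHT replicate 1 or SHT replicate 3 its adjusted p was 0.0691, 0.0534 and 0.0737. The adjacent Gene_14277 and Gene_14278 had higher means in MHT than in SHT, but these groups overlapped. In SHT&MHT their log2 fold changes were -0.14 and -0.19 (adjusted p = 0.694 and 0.566 by quasi-likelihood in edgeR). SHT replicate 2 was the lowest SHT library in both. Gene_14277 held 306, 426 and 349 CPM under CK, 615, 527 and 482 under MHT and 507, 378 and 589 under SHT, and Gene_14278 held 144 ± 33.2 under CK, 244 ± 22.9 under MHT and 214 ± 39.5 under SHT (mean ± SD, n = 3). In MHT&CK Gene_14278 had a log2 fold change of 0.75 (adjusted p = 0.0280) and Gene_14277 of 0.59 (adjusted p = 0.0839), and the adjusted p of the first was 0.0501 to 0.111 without CK replicate 1 or 3 or MHT replicate 1 or 3. In SHT&CK Gene_14278 had 0.57 (adjusted p = 0.0434), lost without any of CK replicates 1 and 3, MHT replicates 1 and 2 and SHT replicates 1 and 3 (adjusted p up to 0.18). They are named alike and their count ratio stayed between 1.85 and 2.63 over the libraries, so they may not be separate genes. With the counts of such neighbours summed, the pair did not pass, with 0.64 in MHT&CK (adjusted p = 0.0656) and 0.48 in SHT&CK (adjusted p = 0.0921).

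For the remaining HSP70s no comparison passed. Gene_25100, a match to Sks2, an HSP70 of fission yeast that works at the ribosome, held 208 ± 28.5 CPM under CK, 237 ± 15.5 under MHT and 196 ± 20.2 under SHT (mean ± SD, n = 3), and for SHT&CK a log2 fold change of -0.09 (95% interval -0.46 to 0.27). Gene_9501 had 0.15 (95% interval -0.31 to 0.62) and the HSP70-like Gene_6678 0.44 (95% interval -0.01 to 0.88) in the same comparison. The unigenes that the choice of members left out belong beside these values. Of them Gene_6270, described as HSP70, had log2 fold changes of 1.06 for MHT&CK (adjusted p = 0.0265) and 1.84 in SHT&CK (adjusted p = 5.97e-04), Gene_6272 had 0.82 and 1.21 (adjusted p = 0.0833 and 0.00756), and the lumenal Gene_9154, the next ID after Gene_9153, had 1.00 and 1.12 (adjusted p = 0.00962 and 0.00197). Gene_6270 and Gene_9154 thus rose in both comparisons, the latter barely past the limit in MHT&CK, and Gene_6272 rose in SHT&CK.

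**Figure D3:**
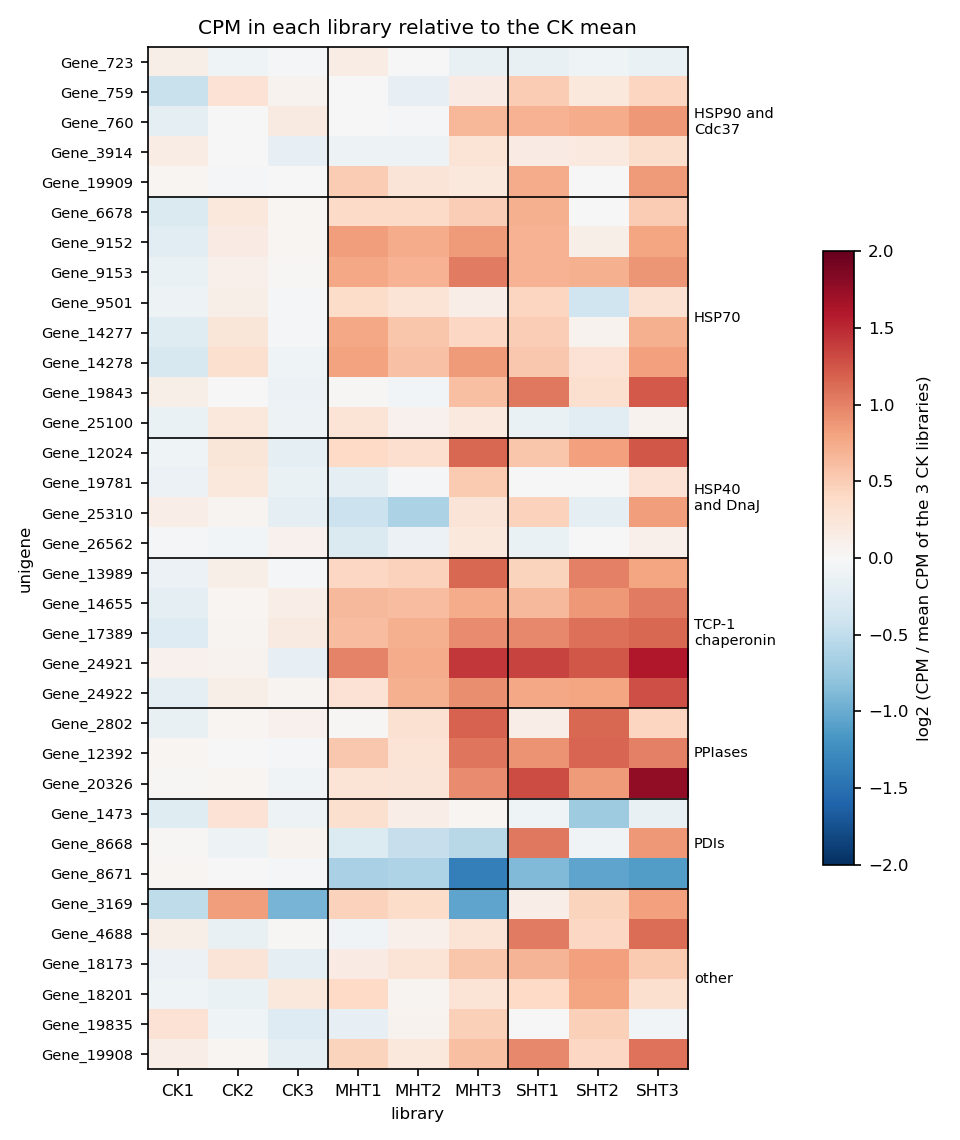
Log2 ratio of the CPM in each library to the mean of the 3 CK libraries (red above, blue below) for the 34 chaperone unigenes in rows, by family. The columns are the 9 libraries. The TCP-1 rows are red in all MHT and SHT columns, the row of Gene_8671 is blue in them, and the SHT2 column is paler than SHT1 and SHT3 in most HSP70 rows.

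HSP90 had no DEG, and 1 of its unigenes was higher at an adjusted p below 0.05. Gene_19909, the unigene described as heat shock protein 90 itself and with the highest counts, held 492, 473 and 479 CPM under CK, 685, 577 and 558 under MHT and 804, 478 and 868 under SHT. Every MHT library was above CK, whereas SHT replicate 2 lay within the range of CK and the other SHT libraries above all others. Its log2 fold changes were 0.33 (95% interval -0.16 to 0.83) in MHT&CK and 0.57 (SE 0.227, adjusted p = 0.0609 by quasi-likelihood in edgeR) in SHT&CK. The HSP90-domain proteins Gene_759 and Gene_760 are neighbours with the same description and low counts. Gene_760 held 23.1, 26.3 and 29.9 CPM under CK, 26.7, 25.97 and 42.0 under MHT and 42.8, 44.3 and 48.1 under SHT, above CK and MHT in each SHT library. It had 0.77 in SHT&CK (SE 0.214, adjusted p = 0.0139), which went to an adjusted p of 0.0573 without CK replicate 1 and 0.0501 without SHT replicate 3.

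Gene_759 held 22.0, 36.6 and 31.4 CPM under CK, 30.2, 26.7 and 33.5 under MHT and 42.5, 34.7 and 40.5 under SHT, and for SHT&CK a log2 fold change of 0.38 with an adjusted p of 0.161. With the counts of Gene_759 and Gene_760 summed, the log2 fold change in SHT&CK was 0.57 (adjusted p = 0.0324 by quasi-likelihood in edgeR). Gene_723, another HSP90-domain protein, stayed at 81.9 to 100.3 CPM in all 9 libraries, and its log2 fold change in SHT&CK was -0.12 (95% interval -0.46 to 0.22). The co-chaperone Cdc37, Gene_3914, which hands protein kinases to HSP90, held 56.8, 51.7 and 46.1 CPM under CK, 47.8, 48.2 and 62.3 under MHT and 57.5, 58.7 and 65.5 under SHT. All SHT libraries were slightly above CK, with a log2 fold change of 0.23 (95% interval -0.15 to 0.62), which did not pass.

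The HSP40 family was mixed. Gene_25310, a type I HSP40 co-chaperone, the class of J proteins with a zinc-binding region, held 1257, 1194 and 1003 CPM under CK, 855, 741 and 1372 under MHT and 1578, 1003 and 2055 under SHT. MHT replicates 1 and 2 were below all CK libraries and MHT replicate 3 above them, and SHT replicate 2 was at the level of the lowest CK library. None of its comparisons passed, with log2 fold changes of -0.22 (95% interval -0.86 to 0.42) in MHT&CK, 0.42 (95% interval -0.22 to 1.06) in SHT&CK and 0.64 (adjusted p = 0.172 by quasi-likelihood in edgeR) in SHT&MHT. Without both MHT replicate 3 and SHT replicate 2 the last was 1.17 with an adjusted p of 5.91e-04.

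The DnaJ-domain protein Gene_12024 held 49.5, 62.1 and 46.1 CPM under CK, 69.0, 66.6 and 116 under MHT and 77.6, 93.2 and 124 under SHT. Every heated library lay above CK, and its SHT&CK log2 fold change of 0.90 (SE 0.252, adjusted p = 0.0140 by quasi-likelihood in edgeR) passed the limit of a DEG without CK replicate 2 (1.04) or SHT replicate 1 (1.03), while its adjusted p was above 0.05 without replicate 3 of CK (0.0635) or SHT (0.0686). The other DnaJ-domain proteins, Gene_19781 and Gene_26562, had log2 fold changes of 0.10 (95% interval -0.37 to 0.57) and -0.01 (95% interval -0.39 to 0.37) in SHT&CK, and their groups overlapped in all comparisons.

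The protein disulfide isomerases went in different directions. Gene_8671, described as a protein disulfide-isomerase precursor, held 477, 462 and 459 CPM under CK, 298, 304 and 181 under MHT and 252, 223 and 215 under SHT. The 3 CK libraries were close together and above all heated libraries. It fell in SHT&CK, the log2 fold change being -1.02 (SE 0.207, adjusted p = 0.00257 by quasi-likelihood in edgeR), and in MHT&CK its value was -0.83 (SE 0.206, adjusted p = 0.0183, and 0.0705 and 0.0604 without CK replicates 1 and 3). The call in SHT&CK was lost by a small margin without SHT replicate 3 (-0.98), and with libraries scaled by their totals alone it was -0.75, a scaling under which the median of all unigenes was 0.28. Under every alternative tried Gene_8671 was lower in SHT&CK at an adjusted p of at most 0.0151.

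Gene_8668, described as protein disulfide isomerase and 3 ID numbers away, held 55.1, 50.2 and 56.6 CPM under CK, 44.7, 39.1 and 36.8 under MHT and 112, 51.1 and 98.3 under SHT. Each MHT library was below each CK library, and SHT replicate 2 lay within the range of CK while the other SHT libraries were far above it. It rose in SHT&MHT with a log2 fold change of 1.11 (SE 0.249, adjusted p = 0.0177 by quasi-likelihood in edgeR), the only DEG of that comparison among the 34. This call was lost without MHT replicate 1 (1.20, adjusted p = 0.0507), MHT replicate 2 (1.09), SHT replicate 1 (0.88) or SHT replicate 3 (1.01), and in a fit of MHT and SHT alone (1.07, adjusted p = 0.0538). In SHT&CK its log2 fold change was 0.69 with an adjusted p of 0.0416, which was 0.0591 to 0.187 without any single CK library, MHT replicate 2, SHT replicate 1 or SHT replicate 3. Gene_1473, with the same description as Gene_8671, held 169, 245 and 186 CPM under CK, 250.3, 219.9 and 205 under MHT and 188, 123 and 181 under SHT. Its log2 fold changes of 0.17 (MHT&CK), -0.29 (SHT&CK) and -0.46 (SHT&MHT) did not pass, although every SHT library lay below every MHT library.

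**Figure D4:**
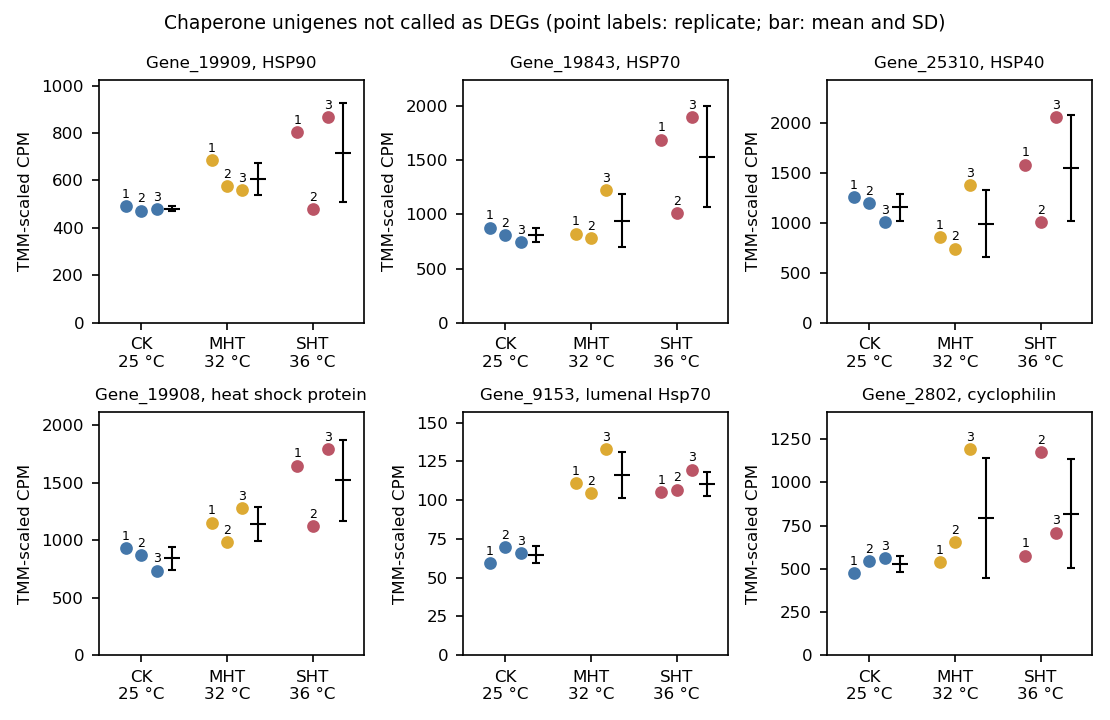
TMM-scaled CPM of 6 chaperone unigenes that were no DEGs, chosen after their values were seen to show the spread within groups. Points are the libraries with their replicate numbers, and black bars are the mean and SD of 3. SHT replicate 2 lies below the other SHT libraries for Gene_19909, Gene_19843, Gene_25310 and Gene_19908 and above them for Gene_2802, while the SHT libraries of Gene_9153 lie close together, at 105 to 119.6 CPM.

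Of the 6 other unigenes, a pair are named heat shock protein with no family. Gene_19908, the ID next to HSP90 Gene_19909, held 927, 866 and 735 CPM under CK, 1153, 981 and 1278 under MHT and 1649, 1122 and 1790 under SHT. Both heated groups lay above CK in every library, and the log2 fold change in SHT&CK was 0.85 (SE 0.229, adjusted p = 0.0115 by quasi-likelihood in edgeR), which passed the limit as 1.02 without SHT replicate 2 and had an adjusted p of 0.0609 without CK replicate 3 and 0.0520 without SHT replicate 3. Its counts were 1.53 to 2.35 times those of Gene_19909 over the 9 libraries. Gene_4688 held 11.7, 9.74 and 10.9 CPM under CK, 10.2, 11.5 and 13.1 under MHT and 22.1, 14.4 and 23.3 under SHT, so that only the SHT group was set apart. It had 0.89 in SHT&CK (adjusted p = 0.0110), which was a DEG without SHT replicate 2 (1.07) and had an adjusted p of 0.0529 without SHT replicate 3, and 0.78 in SHT&MHT (adjusted p = 0.0509).

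The vacuolar transporter chaperone Gene_18173 was higher in SHT&CK (log2 fold change 0.68, adjusted p = 0.0130 by quasi-likelihood in edgeR), at 39.8, 51.3 and 38.2 CPM under CK, 48.5, 52.3 and 63.5 under MHT and 69.3, 76.1 and 61.8 under SHT. Its adjusted p was 0.0526 without CK replicate 1 and 0.0642 without CK replicate 3. Gene_18201, described alike, had 0.51 (adjusted p = 0.0773). At the low counts of Gene_3169 a difference was not detectable, with 0.43 and a 95% interval of -0.83 to 1.70. Shr3, Gene_19835, held 94.7 ± 18.8 CPM under CK, 105 ± 24.6 under MHT and 106 ± 22.0 under SHT (mean ± SD, n = 3), and for SHT&CK a log2 fold change of 0.16 (95% interval -0.32 to 0.65).

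The place of SHT replicate 2 and MHT replicate 3 within their groups varied by family. SHT replicate 2 was below 0.7 times the mean of the other SHT libraries in 12 of the 34 members (35.3%), against 18.4% of all unigenes, a limit set after the values were seen. These included 5 of the 8 HSP70s, HSP90 Gene_19909, the type I HSP40, both unigenes named heat shock protein and 2 of the 3 disulfide isomerases, with ratios down to 0.487 for Gene_8668, but none of the 5 TCP-1 unigenes. MHT replicate 3 was above 1.4 times the mean of the other MHT libraries in 11 members (32.4%), against 19.7% of all unigenes, among them all 3 peptidyl-prolyl isomerases and 3 of the 4 HSP40s. The part of these libraries in the results was not tested beyond leaving them out. Without SHT replicate 2, further members were higher at an adjusted p below 0.05 in SHT&CK, namely Gene_19909 with 0.79 (adjusted p = 0.00650), Gene_6678 with 0.60 (adjusted p = 0.0282) and Gene_14277 with 0.60 (adjusted p = 0.0404). In SHT&MHT these were Gene_4688 with 0.96 (adjusted p = 0.0142) and Gene_19843 with 0.93 (adjusted p = 0.0228). Gene_20326 was gained there too, with 1.03 (adjusted p = 0.0154 by quasi-likelihood in edgeR). In MHT&CK the gained members were Gene_13989 (adjusted p = 0.0443) and Gene_24922 (adjusted p = 0.0478). The shares of all unigenes higher at any fold were then 18.8% in SHT&CK, 6.5% in SHT&MHT and 8.69% in MHT&CK. Without MHT replicate 3 the members gained in SHT&CK were Gene_19909 (adjusted p = 0.0417) and Gene_2802 (adjusted p = 0.0453). In SHT&MHT, beside Gene_20326, they were Gene_760 with 0.77, Gene_12392 with 0.61, Gene_19843 with 0.94, Gene_25310 with 0.95 and Gene_4688 with 0.87, at adjusted p-values of 0.00955 to 0.0253. Higher at any fold in this fit were 13.7% of all unigenes in SHT&MHT, against 4.82% with all libraries. In SHT&CK the share was 23.1%, against 20.4%. Without MHT replicate 1 Gene_13989 (adjusted p = 0.0431) and Gene_24922 (adjusted p = 0.0297) were gained in MHT&CK, and without SHT replicate 3 Gene_24922 (adjusted p = 0.0462). The shares of all unigenes higher in MHT&CK were then 6.4% and 6.82%, against 7.5% with all libraries. No direct test of a difference between families was made.

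Other genes of protein folding and turnover were looked up by word lists in the same table. No description named a heat shock transcription factor, the regulator of these genes in yeast and animals. SGT1, Gene_4229, a partner of HSP90, had log2 fold changes of 0.04 for MHT&CK and 0.39 in SHT&CK (adjusted p = 0.308 by quasi-likelihood in edgeR). Of 7 unigenes of ER entry and glycosylation none was a DEG, and 2 were higher in SHT&CK at an adjusted p below 0.05, an oligosaccharyl transferase, Gene_19737, with 0.59 (adjusted p = 0.0243) and a microsomal signal peptidase, Gene_22199, with 0.62 (adjusted p = 0.0377). Of 29 unigenes named for the 26S proteasome, which degrades tagged proteins, 1 rose in MHT&CK and 1 rose and 1 fell in SHT&CK, where their median log2 fold change was 0.25. The unigene that rose in both was Gene_4804, the tethering factor STS, which in yeast brings proteasomes to the nucleus and is no subunit, with 1.26 and 1.54 (adjusted p = 0.00519 and 5.82e-04), and that which fell was a beta type-6 subunit, Gene_19605, with -1.02 (adjusted p = 0.00441). Of 3 unigenes of trehalose metabolism, the sugar that guards proteins of heated fungi, the synthase Gene_17660 rose in SHT&CK with 1.07 (adjusted p = 0.00152). The other synthase unigene, Gene_17659, had 0.70 in MHT&CK (adjusted p = 0.0231) and 0.79 in SHT&CK (adjusted p = 0.00532), and a trehalose phosphorylase, Gene_19920, had -0.99 in SHT&CK (adjusted p = 0.00924).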

How the data were processed

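The authors trimmed and filtered reads with fastp, removed rRNA with Bowtie2, aligned with HISAT2 to the genome of strain JKBL130LB and assembled transcripts with StringTie, and the tool that made the counts is not given in the sources used here. For these tools, neither version nor strand setting is given in the sources used here. The authors deposited raw whole-number counts for each unigene and the name of its best BLASTX match. Unigene lengths were not used here, so no level is compared between unigenes as expression and count ratios of neighbouring IDs describe counts alone, and no sequences or coordinates are given.

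Unigenes with a count above 0 in all 9 libraries (13018 of 13953) were scaled by TMM and fitted in edgeR 4.0.16 (R 4.3.3) by robust quasi-likelihood (two-sided) with group as the only term over all libraries. P-values were adjusted by Benjamini-Hochberg over all of them. Standard errors are the log2 fold change over the root of F, and intervals (95%) use its degrees of freedom. The common biological coefficient of variation was 0.221. The fit was tested on simulated data. Counts of 3925786 to 6180053 per library limit precision for members of few counts.

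The members, families and word lists were chosen with earlier results of these data known. Members were named where they were DEGs or had the 2 highest mean counts of their family, 17 in all, and the other 17 were named after their values were seen so that each member is accounted for. Alternatives were DESeq2 1.42.0, other scalings and filters, a fit of only the compared groups, a block for the replicate number, no fold limit, leaving out each library and summed neighbours.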

Additional observations from a re-analysis of the deposited data

How the results depend on the processing

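The log2 fold changes of the 34 members were recomputed under 19 alternatives, except for Gene_3169 under edgeR's own filter on low counts, which left it out, and none with an adjusted p below 0.05 in either fit changed sign. A further 72 of 1935 recomputed values changed sign where neither fit had an adjusted p below 0.05. With a library left out, the members that rose numbered 0 to 1 in MHT&CK, 3 to 7 in SHT&CK and 0 to 2 in SHT&MHT. Of all unigenes 2.45% to 4.13%, 8.86% to 11.7% and 0.899% to 5% then rose, in the same order. The members that fell numbered 0 to 1 in SHT&CK and 0 in MHT&CK and SHT&MHT. The shares of all unigenes that fell in these fits are not given, and with all libraries they were 10.9%, 4.32% and 2.87%. At any fold and with a library left out, the higher members numbered 2 to 9 in MHT&CK, 8 to 19 in SHT&CK and 0 to 7 in SHT&MHT. The shares of all unigenes were 3.19% to 8.69%, 13.6% to 23.1% and 1.01% to 13.7%. The lower members numbered 0 to 1 in MHT&CK, 1 in SHT&CK and 0 in SHT&MHT, against 3.82% to 8.63%, 13.8% to 23.6% and 1.28% to 14.6%. The median log2 fold change of the members was then 0.25 to 0.40, 0.51 to 0.66 and 0.11 to 0.30 in the 3 comparisons.

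Without both MHT replicate 3 and SHT replicate 2, an alternative added after the data were seen, 0 members rose in MHT&CK, 7 in SHT&CK and 5 in SHT&MHT, against 3.16%, 11.3% and 5.99% of all unigenes, and at any fold 22 were higher in SHT&CK and 8 in SHT&MHT. With no minimum fold 7 members were higher in MHT&CK and 17 in SHT&CK, and 1 was lower in MHT&CK. With library totals alone, under which the median of all unigenes was 0.14 in MHT&CK, 0.28 in SHT&CK and 0.12 in SHT&MHT, 13 members rose and 0 fell in SHT&CK with a median of 0.83, and the members higher at any fold were 11 in MHT&CK and 3 in SHT&MHT. The shares of all unigenes were then 17.5% for those that rose in SHT&CK and 12% and 8.65% for those higher at any fold. At any fold 1 member was lower in SHT&CK, against 12.2% of all unigenes. In SHT&MHT the members higher at any fold were 3 with DESeq2 and 3 with upper-quartile scaling, against 7.07% and 5.13% of all unigenes. In a fit of only the compared groups 0 were higher there, against 2.38%, and 0 rose, against 1.97%.

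Deviations of same-numbered libraries from their group means had correlations of -0.227 to 0.442, and those of differently numbered libraries -0.470 to 0.257. Deviations within a group are bound to each other by its mean, so these values do not settle whether the replicate numbers pair the libraries. With the replicate number as a block, 2 members were higher at any fold in SHT&MHT and 14 in SHT&CK, and 4 rose in SHT&CK, as without it. The shares of all unigenes were then 3.46%, 18.5% and 10.4%. The block also took the adjusted p of Gene_12392 in MHT&CK to 0.0791 and those of Gene_8668, Gene_9152 and Gene_14278 in SHT&CK to 0.0510, 0.0628 and 0.0682. A fit of MHT and SHT alone ended the call of Gene_8668 in SHT&MHT. For Gene_12392 in MHT&CK the adjusted p was 0.0680 in a fit of only the compared groups, 0.0534 with upper-quartile scaling and 0.0504 with no filter. Filters on low counts, RLE scaling and summed neighbours moved no count of members by over 1.5 times. Unigenes of 1 description with adjacent ID numbers may be parts of 1 gene.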
